A study of Sus scrofa with 8 samples.

Results

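Multiciliated cells carry many beating cilia on one surface, and a small set of regulatory genes turns a dividing progenitor into such a cell. The 10 regulators described here, out of 22516 genes in the count and TPM files, were taken by their gene names, and no threshold on a value entered the rule. They were the 7 early regulators GMNC, MCIDAS, MYB, TP73, CCNO, CDC20B and DEUP1, which act before or during the multiplication of centrioles, and the 3 late regulators FOXJ1, RFX2 and RFX3, which act on the genes of the cilium itself. All 10 had a row in both files under their Ensembl name, and all 10 passed the minimum of 1 count over the libraries. The libraries came from the olfactory epithelium (OE) of 4 sows aged 8 months, all in estrus. The sows were crosses of the Landrace breed (sire) with the Rongchang breed (dam). In the androstenone treatment group, 2 sows had Boarmate sprayed into the nasal cavity, a commercial spray whose main content is the boar pheromone androstenone, and the OE was taken 30 min later. In the control group, 2 sows received no spray and no solution, so that the act of spraying and the compound cannot be told apart. Both sides of the nose were sequenced apart in every sow, which gave 4 libraries per group.

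Each cilium grows from a centriole, so a cell with many cilia must first make many centrioles. GMNC and MCIDAS, coiled-coil proteins of the geminin family, work with E2F transcription factors to start the programme, and TP73 and MYB act beside them as DNA-binding transcription factors. CCNO (a cyclin-like protein), DEUP1 (the scaffold of the deuterosome, a body on which new centrioles form) and CDC20B (a protein of the same step) take part in centriole amplification. FOXJ1 then switches on the genes of the motile cilium, and RFX2 and RFX3 bind promoters of ciliary genes together with it. In the nose, multiciliated cells belong to the respiratory epithelium, while olfactory sensory neurons bear cilia that do not beat.

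Control 1 held 4178330 counts, and the other 7 libraries held 81580146 to 100685566 each. The sources used here do not tie libraries to sows, so each library counted as a replicate, and the p-values measure the spread between libraries and not between animals. Of 9 defining genes of olfactory sensory neurons that were matched, RTP2 was listed at 0 in all libraries and RTP1 did not exceed 0.038 TPM. GNG13 lay between 0.0805 and 0.493 TPM, CNGA4 between 0.0842 and 0.699 TPM and CNGA2 between 0.279 and 5.01 TPM. OMP, also on the list, was not matched. Other genes of the list were present, with STOML3 at 34.9 to 190.2 TPM, ANO2 at 3.18 to 50.4 TPM, ADCY3 at 6.25 to 15.0 TPM and GNAL at 0.497 to 8.87 TPM. The markers of the labelled tissue were thus uneven, with RTP1, RTP2 and GNG13 at or near 0 and CNGA4 at most 0.699 TPM. Transcripts of bone and cartilage were high in control 4, with 32876 TPM of COL1A1 against 156.6 to 3686 TPM in the other libraries. A list of 26 matched genes of the motile axoneme, the beating core of the cilium, summed to 1025 to 6352 TPM over the libraries. STOML3 was highest in control 3, then androstenone 2, then androstenone 1, as this sum was. Which cells its RNA came from was not tested. In bulk RNA, fewer cells of a type and less RNA per cell cannot be told apart.

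Levels between genes were compared in TPM, a unit that corrects for the length of the transcripts and for the size of the library. FOXJ1 was the most abundant regulator with a mean of 245 TPM over the 8 libraries, followed by TP73 with 58.5 TPM. FOXJ1 lay above TP73, and TP73 above DEUP1, in 8 of 8 libraries. DEUP1 (38.0 TPM) and RFX2 (35.8 TPM) could not be ordered, since DEUP1 was higher in 4 of 8 libraries. MCIDAS (30.3 TPM) came next and lay below RFX2 in 6 of 8 libraries. It exceeded MYB (25.4 TPM) in 2 of 8 libraries, and its higher mean rests on those. CCNO averaged 22.1 TPM and lay below MYB in 6 of 8 libraries and above CDC20B (9.88 TPM) in 7 of 8. RFX3 (3.22 TPM) and GMNC (2.51 TPM) were the least abundant, with RFX3 higher in 6 of 8 libraries.

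**Figure D1:**
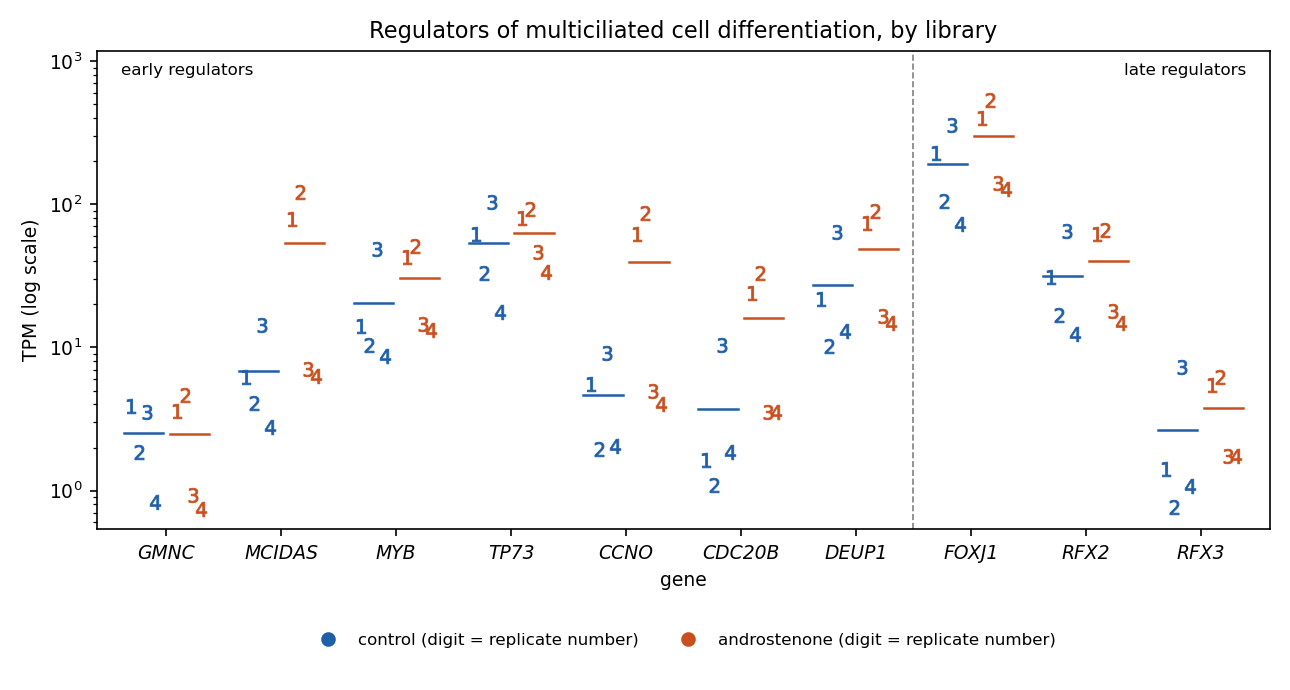
TPM (log axis) of the 10 regulators in each library, with digits for the replicate numbers, blue for control, orange for androstenone, and a horizontal line at each group mean. MCIDAS, CCNO and CDC20B in androstenone 1 and androstenone 2 stand above control 3, the highest control library, while androstenone 3 and androstenone 4 lie within the control range.

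Androstenone 1, androstenone 2 and control 3 were the 3 highest libraries for 9 of the 10 regulators, and GMNC was the exception. Androstenone 2 was the highest library for 8 of the 10 genes and control 3 for the other two, TP73 and RFX3. The lowest library was control 4 for 5 genes, control 2 for 4 and androstenone 4 for GMNC. The highest level over the lowest was 45.0-fold for CCNO, 43.8-fold for MCIDAS and 30.0-fold for CDC20B, against 5.31-fold to 9.48-fold for the other 7 regulators. These 3 genes of the widest range lie next to each other on chromosome 16.

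MCIDAS, CCNO and CDC20B were high in androstenone 1 and androstenone 2. MCIDAS (ENSSSCG00000036183), the co-activator that drives centriole amplification, measured 6.21, 4.06, 14.3 and 2.80 TPM in control 1 to 4 and 79.2, 122.4, 7.08 and 6.35 TPM in androstenone 1 to 4. Androstenone 3 and androstenone 4 lay between control 1 and control 3, so the groups overlapped. CPM are counts set against the library total times its TMM factor, which corrects for the make-up of each library. MCIDAS had 9.15 ± 6.59 CPM without spray and 80.6 ± 85.1 CPM with androstenone (SD, n = 4 each). Its log2 fold change of androstenone over control was 3.13 with a standard error of 1.04 (edgeR's quasi-likelihood test, unadjusted p = 0.0157, Benjamini-Hochberg adjusted p = 0.416).

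CCNO (ENSSSCG00000026849), which deuterosome-based centriole amplification requires, was likewise highest in androstenone 2, then androstenone 1, then control 3. It measured 5.54, 1.94, 9.18 and 2.06 TPM in control 1 to 4 and 62.0, 87.3, 4.98 and 4.03 TPM in androstenone 1 to 4. The 2 high libraries again stood apart from the other 6, and androstenone 3 and androstenone 4 lay below control 1. CCNO had 8.15 ± 5.66 CPM without spray and 77.5 ± 81.5 CPM with androstenone (SD, n = 4 each). The log2 fold change was 3.25 with a standard error of 1.08 (edgeR's quasi-likelihood test, unadjusted p = 0.0158, adjusted p = 0.416).

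CDC20B (ENSSSCG00000048484), a relative of the cell cycle regulator CDC20 found at deuterosomes, measured 1.64, 1.10, 10.4 and 1.85 TPM in control 1 to 4. In androstenone 1 to 4 it measured 23.96, 33.1, 3.52 and 3.54 TPM. Androstenone 3 and androstenone 4 exceeded the control libraries other than control 3, which alone made the groups overlap. The log2 fold change of 2.23 with a standard error of 0.99 did not pass the cutoff (edgeR's quasi-likelihood test, unadjusted p = 0.0525, adjusted p = 0.443). In control 1, CDC20B rested on 13 counts, or 3.11 CPM of the library total, with a 95% exact Poisson interval of 1.66 to 5.32 that covers counting error only. Without control 3 the log2 fold change of CDC20B became 3.46 (edgeR, unadjusted p = 0.00798, adjusted p = 0.189), and without androstenone 3 or androstenone 4 it was 2.56, which also passed the cutoff.

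The calls of MCIDAS and CCNO rested on 2 libraries. Without androstenone 1 and androstenone 2 together, an alternative added once the values were known, the log2 fold change was 0.05 for MCIDAS (edgeR, unadjusted p = 0.939, adjusted p = 0.987). It was then 0.04 for CCNO (edgeR, adjusted p = 0.99) and -0.04 for CDC20B (edgeR, adjusted p = 0.992). With any single library left out, MCIDAS kept a log2 fold change of at least 2.34 and CCNO of at least 2.52, both at an unadjusted p below 0.05. Without control 1 and control 4 together, also added once the values were known, MCIDAS had 2.72 (edgeR, unadjusted p = 0.124, adjusted p = 0.79) and CCNO 3.00 (edgeR, unadjusted p = 0.113, adjusted p = 0.788), so both calls were lost with a similar size. Androstenone 1 and androstenone 2 may come from the same sow or from different sows, which the labels do not say. Their counts differed by a chi-square per degree of freedom of 112, where a larger value means less alike at similar depth. It was 117 for androstenone 3 with androstenone 4, and 738 to 1119 for the other pairs of that group. Among the controls it was 42.3 to 280 for pairs with control 1 and 1406 to 3025 for the other pairs. The value grows with the number of counts, so the pairs with control 1, the library of lowest depth, cannot be compared with the rest. Whether these values follow the sows was not tested.

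The other early regulators varied less. Positions are those of Sscrofa11.1 in the RefSeq annotation. GMNC (ENSSSCG00000024420, chromosome 13, 128239507 to 128251579), which acts upstream of MCIDAS, measured 3.88, 1.87, 3.54 and 0.831 TPM in control 1 to 4 and 3.59, 4.67, 0.933 and 0.745 TPM in androstenone 1 to 4. Androstenone 3 and androstenone 4 stood beside the lowest control library, unlike their place for MCIDAS. The log2 fold change of GMNC was 0.17 with a standard error of 0.68 (edgeR, unadjusted p = 0.808, adjusted p = 0.932). Without androstenone 1 and androstenone 2 it turned to -1.47 (edgeR, unadjusted p = 0.0474, adjusted p = 0.75).

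MYB (ENSSSCG00000004167, chromosome 1, 28819500 to 28856222) measured 14.03, 10.5, 48.3 and 8.68 TPM in control 1 to 4. In androstenone 1 to 4 it measured 42.5, 51.4, 14.7 and 13.2 TPM, so control 3 stood among the high androstenone libraries. Its log2 fold change was 0.74 with a standard error of 0.65 (edgeR, unadjusted p = 0.29, adjusted p = 0.66). TP73 (ENSSSCG00000025685, chromosome 6, 65169770 to 65228997), a member of the p53 family, measured 61.6, 33.2, 102.8 and 17.7 TPM in control 1 to 4 and 80.0, 93.1, 46.6 and 33.5 TPM in androstenone 1 to 4. The highest and the lowest library of TP73 were both controls. Its log2 fold change was 0.40 with a standard error of 0.52 (edgeR, unadjusted p = 0.457, adjusted p = 0.758).

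DEUP1 (ENSSSCG00000014943) measured 21.9, 10.3, 63.7 and 13.0 TPM in control 1 to 4 and 74.3, 89.7, 16.5 and 14.8 TPM in androstenone 1 to 4. Androstenone 1 and androstenone 2 lay 1.17-fold and 1.41-fold above control 3, against 5.53-fold and 8.54-fold for MCIDAS and 6.75-fold and 9.51-fold for CCNO. The log2 fold change of DEUP1 was 1.00 with a standard error of 0.77 (edgeR, unadjusted p = 0.226, adjusted p = 0.614). Its gene (chromosome 9, 25688394 to 25893105) shares a short end with SLC36A4 in the RefSeq annotation of Sscrofa11.1, and how reads of the overlap were assigned is not known.

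None of the 3 late regulators passed the cutoff. FOXJ1 (ENSSSCG00000017187, chromosome 12, 5307370 to 5312117) measured 227, 105.4, 356 and 73.2 TPM in control 1 to 4 and 403, 531, 140.0 and 126.8 TPM in androstenone 1 to 4. Control 3 came close to androstenone 1, and androstenone 3 and androstenone 4 lay below control 1. The log2 fold change of FOXJ1 was 0.82 with a standard error of 0.61 (edgeR, unadjusted p = 0.215, adjusted p = 0.606). RFX2 (ENSSSCG00000035403, chromosome 2, 72949859 to 73051184) measured 30.9, 16.8, 65.4 and 12.5 TPM in control 1 to 4 and 61.6, 66.3, 18.0 and 14.8 TPM in androstenone 1 to 4, with control 3 between the 2 high androstenone libraries. Its log2 fold change was 0.52 with a standard error of 0.65 (edgeR, unadjusted p = 0.439, adjusted p = 0.748). RFX3 (ENSSSCG00000005225, chromosome 1, 218340427 to 218647389) measured 1.43, 0.769, 7.29 and 1.08 TPM in control 1 to 4 and 5.49, 6.21, 1.74 and 1.74 TPM in androstenone 1 to 4. Control 3 was the highest library, and androstenone 3 and androstenone 4 lay above the other 3 controls. The log2 fold change of RFX3 was 0.67 with a standard error of 0.78 (edgeR, unadjusted p = 0.415, adjusted p = 0.736).

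The cutoff of the study was an unadjusted p below 0.05 with a log2 fold change of 1 or more in either direction. By it, 2 of the 10 regulators rose (MCIDAS and CCNO) and 0 fell. Over all 21318 genes tested, 2.04% were higher and 4.38% lower in the androstenone treatment group at that cutoff. Neither MCIDAS nor CCNO passed the unadjusted cutoff with limma voom (adjusted p = 0.592 for both) or with limma on log2(TPM + 0.1) and log2(TPM + 1) (adjusted p = 0.633 to 0.64). After Benjamini-Hochberg adjustment over all genes, edgeR's quasi-likelihood test called 0 genes and therefore 0 regulators, while 2415 genes had an unadjusted p below 0.05. With the same adjustment edgeR's likelihood ratio test called 200 genes, its exact test 157 and limma voom 0, none of them a regulator. DESeq2 called 670, among them MCIDAS (adjusted p = 0.0322) and CCNO (adjusted p = 0.0304). No regulator had groups that did not overlap in CPM with androstenone above, which 3.89% of all genes had. The median log2 fold change was 1.00 over the early regulators and 0.67 over the late ones, against -0.02 over all genes tested. The difference between early and late regulators was not tested. Without control 3, 6 of the 10 regulators rose at the cutoff, namely MCIDAS (log2 fold change 3.80), CCNO (3.86), CDC20B (3.46), RFX3 (1.91), DEUP1 (1.82) and MYB (1.58). In that fit 4.48% of all genes were higher at the cutoff, and 0 regulators passed after adjustment in edgeR.

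**Figure D2:**
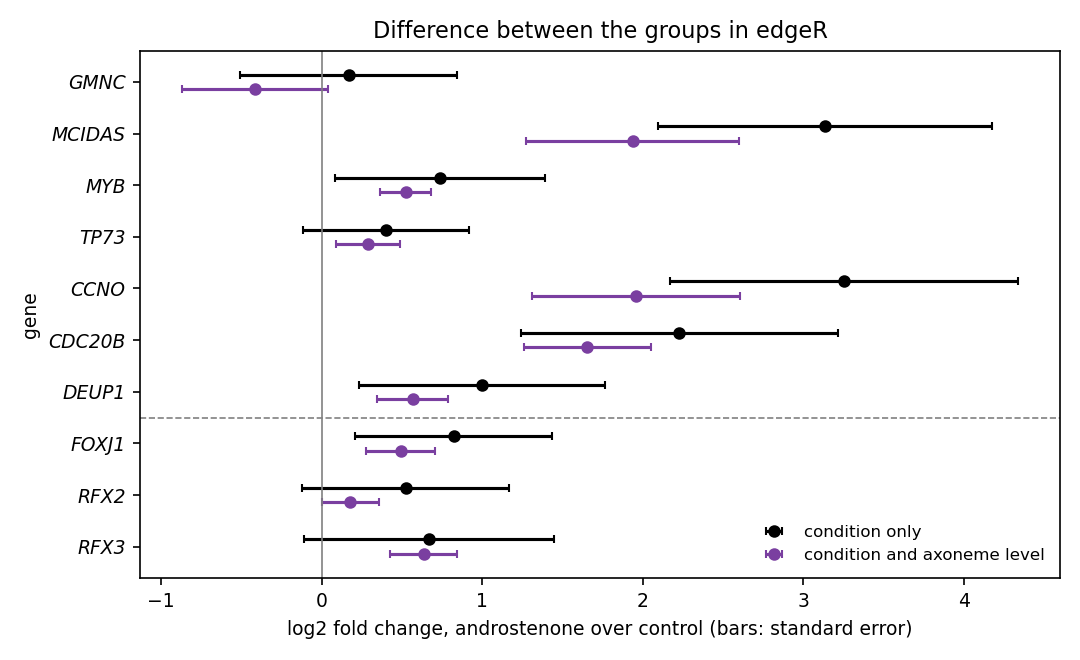
Log2 fold change of androstenone over control for each regulator in edgeR, with standard errors as bars, from the fit with condition alone (black) and from the fit that also holds the axoneme level (purple). MCIDAS and CCNO lie above 3 with condition alone and at 1.94 and 1.96 with the axoneme level added, where their bars are shorter.

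The libraries differed in their content of ciliary transcripts. The summed TPM of the 26 axoneme genes were 2159, 1042, 6352 and 1025 in control 1 to 4 and 4247, 4584, 1478 and 1299 in androstenone 1 to 4. Control 3 held the most, and androstenone 1 and androstenone 2 reached 0.669 and 0.722 of its level. None of the 26 genes passed the cutoff, and their median log2 fold change was 0.28. The most abundant were TPPP3, a microtubule-associated protein, at 205 to 1276 TPM, and ROPN1L, a radial spoke protein, at 87.8 to 611 TPM.

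FOXJ1, RFX2, TP73, MYB, DEUP1 and RFX3 kept closer to the axoneme level than the other regulators. Their ranges relative to it were 1.57-fold to 2.06-fold, with 1.98-fold for DEUP1 and 2.05-fold for RFX3. Per 1000 TPM of axoneme genes, RFX2 spanned 10.3 to 16.1 over the 8 libraries, a 1.57-fold range. FOXJ1 stood at 105.2, 101.1, 56.1 and 71.4 in control 1 to 4 and at 94.8, 115.7, 94.7 and 97.7 in androstenone 1 to 4 on this scale, with control 3 the lowest. MYB spanned 6.50 to 11.2 and TP73 16.2 to 31.8, and the groups overlapped in FOXJ1, RFX2, TP73 and MYB. For MYB the overlap was narrow, with the highest control at 10.03 and the lowest androstenone library at 9.93. GMNC spanned 0.558 to 1.80, likewise with overlap.

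**Figure D3:**
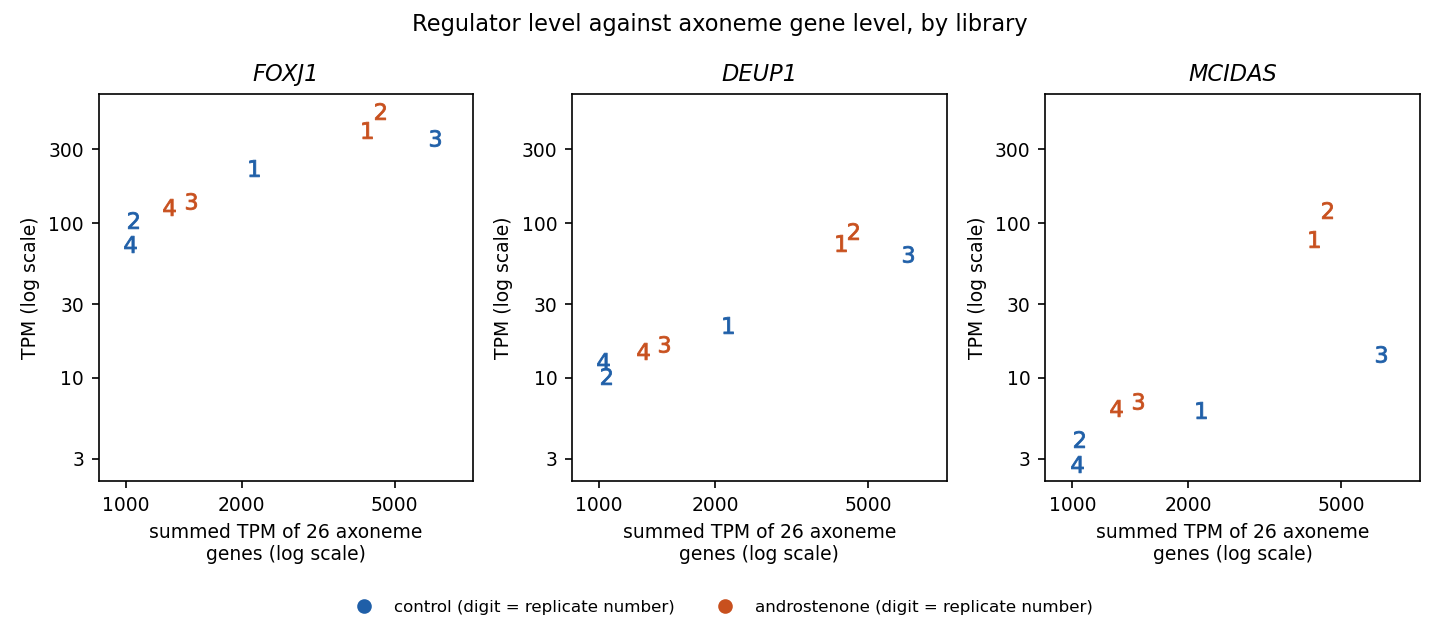
TPM of FOXJ1, DEUP1 and MCIDAS (log axis) against the summed TPM of 26 axoneme genes (log axis), with 1 digit per library for its replicate number. All 3 genes are highest in the 3 libraries with the most axoneme RNA, and among these MCIDAS stands at 14.3 TPM in control 3 against 79.2 and 122.4 TPM in androstenone 1 and androstenone 2.

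MCIDAS, CCNO and CDC20B departed from the axoneme level. Per 1000 TPM of axoneme genes, MCIDAS stood at 2.88, 3.90, 2.26 and 2.73 in control 1 to 4 and at 18.6, 26.7, 4.79 and 4.89 in androstenone 1 to 4. The groups did not overlap on this scale, with androstenone 3 and androstenone 4 just above control 2. CCNO stood at 2.56, 1.86, 1.45 and 2.01 in the controls and at 14.6, 19.1, 3.37 and 3.11 in the androstenone libraries. CDC20B stood at 0.758, 1.06, 1.63 and 1.80 in the controls and at 5.64, 7.22, 2.38 and 2.73 in the androstenone libraries. The groups of these genes did not overlap either. RFX3 was the fourth regulator without overlap, at 0.661 to 1.15 against 1.18 to 1.35, and its lowest library, control 1, rested on 24 counts. So 4 of the 10 regulators lay above the controls in all 4 androstenone libraries per axoneme level, as did 0.929% of all genes tested. Genes of the axoneme list itself also did so, among them ROPN1L, RSPH9, DNAAF1 and TPPP3. The lack of overlap was therefore not particular to the regulators. DEUP1 overlapped, with 9.88 to 12.6 in the controls and 11.2 to 19.6 in the androstenone libraries.

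**Figure D4:**
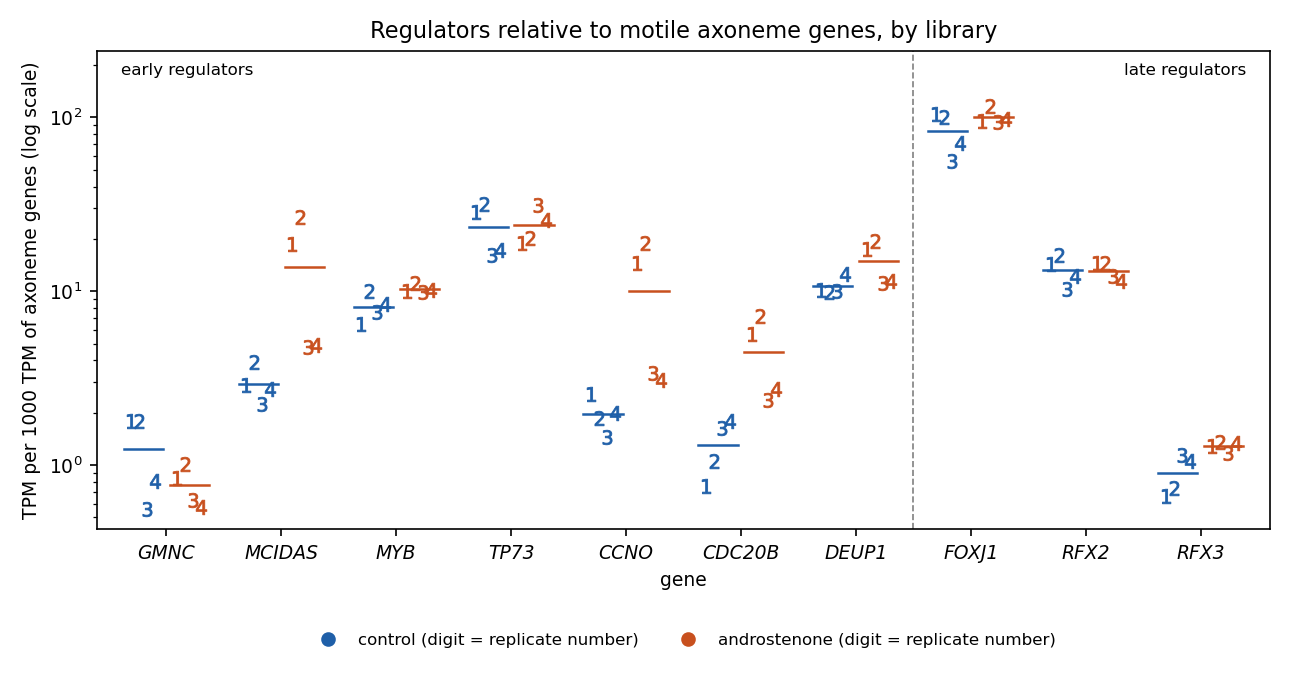
TPM of each regulator per 1000 TPM of the 26 axoneme genes (log axis), by library and group, with a line at each group mean. MCIDAS, CCNO, CDC20B and RFX3 show no overlap between the groups, and for the first 3 of these androstenone 1 and androstenone 2 lie above the rest.

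Set against FOXJ1 alone, MCIDAS measured 2.73 to 4.02 TPM per 100 TPM of FOXJ1 in the controls and 5.01 to 23.1 in the androstenone libraries. CCNO measured 1.84 to 2.81 against 3.18 to 16.5, again without overlap. CDC20B (0.720 to 2.91 against 2.51 to 6.24) and RFX3 (0.628 to 2.04 against 1.17 to 1.37), which had not overlapped per axoneme level, did overlap on this scale. Of all genes, 0.441% lay above the controls in this way. GMNC lay below instead, at 0.994 to 1.78 in the controls and 0.588 to 0.892 in the androstenone libraries, as did 2.3% of all genes. The mean log2 TPM of the early regulators minus that of the late ones was -1.29, -1.21, -1.43 and -1.30 in control 1 to 4. In androstenone 1 to 4 it was -0.45, -0.29, -1.13 and -1.21, so androstenone 4 and control 2 were alike and the groups overlapped.

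The fit was repeated with the log2 of the axoneme level as a second term, which was also added once the values were known. With it, 3 regulators rose at the cutoff, and 2.22% of all genes were higher in the androstenone treatment group. MCIDAS had a log2 fold change of 1.94 with a standard error of 0.66 (edgeR's quasi-likelihood test, unadjusted p = 0.0195, adjusted p = 0.207). CCNO had 1.96 with a standard error of 0.65 (edgeR, unadjusted p = 0.0168, adjusted p = 0.194). CDC20B had 1.65 with a standard error of 0.40 (edgeR, unadjusted p = 0.00326, adjusted p = 0.114). Below a log2 fold change of 1, and so not called, stood RFX3 at 0.64, DEUP1 at 0.57, MYB at 0.52, FOXJ1 at 0.49, TP73 at 0.29, RFX2 at 0.18 and GMNC at -0.41. Among them MYB (edgeR, unadjusted p = 0.0118, adjusted p = 0.173), RFX3 (0.0159, 0.191) and DEUP1 (0.0328, 0.248) also had an unadjusted p below 0.05. For FOXJ1 it was 0.0505 (edgeR, adjusted p = 0.288). Low unadjusted p-values were thus not confined to the 3 regulators called. Nor were they confined to regulators. Of all 21318 genes tested, 3711 had an unadjusted p below 0.05 in this edgeR fit, against 2415 with condition alone.

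Of the single libraries left out, control 3 changed the values of MCIDAS, CCNO and CDC20B the most. With any other library left out, MCIDAS ranged from 1.67 (without androstenone 2) to 2.50 (without androstenone 4). Without control 3 the fit with the axoneme level gave 0.87 for MCIDAS (edgeR, unadjusted p = 0.129, adjusted p = 0.465) and 0.86 for CCNO (unadjusted p = 0.0331, adjusted p = 0.319), both under the cutoff. CDC20B then had 1.27 (edgeR, unadjusted p = 0.0331, adjusted p = 0.319). GMNC was lower at the cutoff in that fit, at -1.08 (edgeR, unadjusted p = 0.0236, adjusted p = 0.291). Of the libraries left in it, only androstenone 1 and androstenone 2 held more than 2159 TPM of axoneme genes. The axoneme level and these libraries were then hard to tell apart. Without control 1, whose depth was lowest, MCIDAS had 1.84 at an unadjusted p of 0.0542 (edgeR, adjusted p = 0.322). CDC20B had an unadjusted p below 0.05 with each of the 8 libraries left out.

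CDC20B (chromosome 16, 34294486 to 34354588), MCIDAS (34377130 to 34386095) and CCNO (34387179 to 34390611) lie within 96126 bases of Sscrofa11.1 in the RefSeq annotation. MCIDAS and CCNO are 1083 bases apart, and their TPM ratio stayed between 1.12 and 2.09 over the 8 libraries. Of the protein-coding neighbours, GZMA was high in androstenone 1 and androstenone 2, and the other measured ones had no rise of that size there. GPX8, an endoplasmic reticulum peroxidase whose gene lies within the span of CDC20B, measured 12.5, 30.9, 6.47 and 89.0 TPM in control 1 to 4 and 4.80, 5.52, 18.3 and 14.1 TPM in androstenone 1 to 4. It was thus lowest in androstenone 1 and androstenone 2, the libraries in which CDC20B was highest. The log2 fold change of GPX8 was -1.76 (edgeR, unadjusted p = 0.0768, adjusted p = 0.476). DHX29, a helicase of translation initiation downstream of CCNO, ranged only from 10.1 to 16.9 TPM, with a log2 fold change of 0.22 (edgeR, adjusted p = 0.66). Its highest libraries were control 3 (16.9 TPM), androstenone 2 (16.2 TPM) and androstenone 1 (14.3 TPM). ESM1, GZMK, PLPP1, SLC38A9 and DDX4 were not called either. GZMA, next to CDC20B, encodes a granule protease of cytotoxic lymphocytes and has 2 identifiers in the files. The first measured 9.80, 7.65, 12.4 and 7.19 TPM in control 1 to 4 and 36.4, 30.7, 11.3 and 9.37 TPM in androstenone 1 to 4, with a log2 fold change of 1.38 (edgeR, unadjusted p = 0.018, adjusted p = 0.416). The second measured 8.20, 9.47, 12.3 and 6.02 TPM in the controls and 52.1, 45.4, 18.1 and 17.8 TPM in the androstenone libraries, with 2.03 (edgeR, unadjusted p = 0.00137, adjusted p = 0.378). Both therefore rose at the cutoff, and both were highest in androstenone 1 and androstenone 2. How reads were divided between the identifiers is not known, and their sum was 13.2 to 24.7 TPM in the controls and 27.1 to 88.5 TPM in the androstenone libraries.

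**Figure D5:**
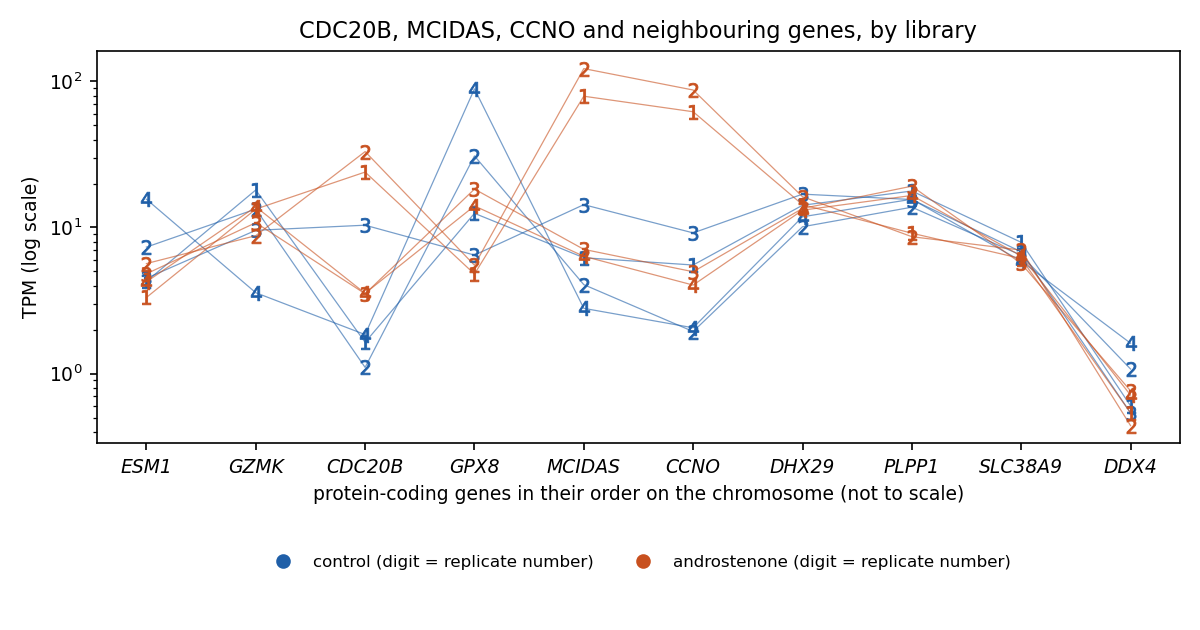
TPM (log axis) of CDC20B, MCIDAS, CCNO and the protein-coding genes around them with a single identifier in the files, in their order on the chromosome, with 1 line per library and GZMA left out for its 2 identifiers. The lines of androstenone 1 and androstenone 2 rise at CDC20B, MCIDAS and CCNO and are low at GPX8 and among the others at DHX29.

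Among 13 matched partners and inhibitors of the regulators, 2 rose and 0 fell, and the median log2 fold change was 0.28. Over all genes tested, 2.04% rose and 4.38% fell at the cutoff. CDK1, the mitotic kinase, measured 15.2, 24.1, 10.1 and 6.72 TPM in control 1 to 4 and 32.2, 42.6, 21.4 and 31.1 TPM in androstenone 1 to 4. Its log2 fold change was 1.34 with a standard error of 0.35 (edgeR, unadjusted p = 0.0049, adjusted p = 0.393), and its groups did not overlap in CPM but did in TPM. CDC20, which activates the anaphase-promoting complex, measured 18.2, 35.7, 17.05 and 9.44 TPM in the controls and 87.9, 103.9, 26.5 and 26.5 TPM in the androstenone libraries. Its log2 fold change was 1.77 with a standard error of 0.56 (edgeR, unadjusted p = 0.0121, adjusted p = 0.403). GMNN, the inhibitor that binds GMNC and MCIDAS, had a log2 fold change of 0.11 and ranged from 12.5 to 38.1 TPM. E2F4, the main partner of MCIDAS on DNA, had 0.28 and ranged from 28.6 to 45.6 TPM.

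Of 21 matched genes of centriole assembly, 5 rose and 0 fell, with a median log2 fold change of 0.45. The share of all genes tested that rose at the cutoff was 2.04%. POC1A, a centriolar wall protein, rose by 1.44 on the log2 scale with a standard error of 0.39 (edgeR, unadjusted p = 0.00535, adjusted p = 0.393). CEP152, the scaffold that recruits PLK4, rose by 1.04 (standard error 0.30, edgeR, unadjusted p = 0.0076, adjusted p = 0.393). The other called genes were PLK4, STIL and HYLS1, named after their values were seen. PLK4, the kinase that starts centriole duplication, measured 4.94, 6.70, 7.17 and 2.93 TPM in control 1 to 4 and 28.6, 36.8, 6.16 and 7.60 TPM in androstenone 1 to 4. As for MCIDAS, 2 androstenone libraries were high and the other 2 lay near the controls. STIL, HYLS1, POC1A and CEP152 were likewise highest in androstenone 2, then androstenone 1. With the axoneme level in the fit, 4 of the 21 genes were called higher, as were 2.22% of all genes.

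Notch signalling holds progenitors back from the multiciliated fate. Of its 11 listed genes 0 rose and 1 fell, HEYL, a target of Notch receptors, by 1.02 on the log2 scale (standard error 0.28, edgeR, unadjusted p = 0.00583, adjusted p = 0.393). HEYL measured 7.46 to 12.0 TPM in the controls and 2.77 to 5.99 TPM in the androstenone libraries. Over all genes tested, 4.38% fell at the cutoff. The median log2 fold change of the 11 genes was -0.09, and 5 of them lay above 0. HES1 (0.34) and HEY1 (0.27) were among these 5, and neither was called.

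Of 11 matched proliferation genes 0 passed the cutoff, with a median log2 fold change of 0.61. TOP2A, the topoisomerase of dividing cells, measured 11.5, 30.1, 9.29 and 7.40 TPM in control 1 to 4 and 10.4, 11.8, 24.6 and 33.8 TPM in androstenone 1 to 4. It was highest in androstenone 4, control 2 and androstenone 3 and at the level of control 1 in androstenone 1 and androstenone 2. CCNB1, a mitotic cyclin, measured 14.3 and 15.5 TPM in those 2 libraries, above control 1, control 3 and control 4, which had at most 10.5 TPM, and below the other 3 libraries, which had 19.9 to 24.7 TPM. BUB1 and CCNB2, also of mitosis, and MCM2, of DNA replication, had the same arrangement. PCNA, the DNA polymerase clamp, ranged from 24.3 to 88.3 TPM, and MCM6, a replicative helicase subunit, from 16.3 to 52.3 TPM.

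Markers of other cell types moved between the libraries as well, and their part in the results above was not tested. At the cutoff 2.04% of all genes rose and 4.38% fell. Of 10 bone and cartilage genes 9 fell, with a median log2 fold change of -3.71 and a summed level of 1216 to 48489 TPM in the controls against 295 to 1441 TPM in the androstenone libraries. Among 6 secretory cell genes, LYZ rose by 1.36 and SCGB1A1, the club cell secretoglobin, fell by 3.39 on the log2 scale (edgeR, unadjusted p = 0.00817 and 0.0386, adjusted p = 0.393 and 0.429). SCGB1A1 measured 9425, 3330, 2416 and 305.7 TPM in control 1 to 4 and 797.9, 418, 22.3 and 17.3 TPM in androstenone 1 to 4. Of the basal cell genes, 4 were matched and 0 passed the cutoff. DLK2 ranged from 2.81 to 169.5 TPM. KRT15, a keratin of basal cells, measured 498 and 151.5 TPM in androstenone 3 and androstenone 4 against 27.1 and 8.56 TPM in androstenone 1 and androstenone 2. The summed level of 4 basal genes ran from 15.9 TPM in androstenone 2 to 792 TPM in androstenone 3. None of 8 olfactory neuron, 3 sustentacular cell or 8 lymphocyte genes tested passed the cutoff. The most abundant genes of the last 2 lists were KRT18 (110.0 to 579 TPM) and CYP1A2 (0.319 to 2.82 TPM), and CD79A (46.6 to 274 TPM) and CD79B (25.6 to 235 TPM). GAP43 fell as 1 of 8 immature neuron genes and SLC4A1 as 1 of 6 erythroid genes, at levels of 0.321 to 1.27 TPM and 0.0467 to 0.270 TPM.

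Likeness to a regulator was measured as Pearson's r of log2 CPM over the 8 libraries among 13447 genes of at least 1 CPM on average, as a description in which the points share libraries of uneven depth. The genes most like FOXJ1 were RUNDC1 (r = 0.997), TJP3 (0.992), ORMDL2 (0.990), RBM47 (0.990) and TSPAN33 (0.989). For TP73, the early regulator of highest mean level, they were TNK1 (0.996), LLGL2 (0.995), ATP2C2 (0.992), AP1M2 (0.992) and ZFYVE19 (0.992). For MCIDAS, added after the values were seen, they were PHF7 (0.997), VWA5B2 (0.995), GTF2F1 (0.994), its neighbour CCNO (0.993) and GABRP (0.990). Without androstenone 1 and androstenone 2, over the 6 libraries left, the r of MCIDAS with PHF7 was 0.990 and with CCNO 0.936. Between the regulators, GMNC and CDC20B were the least alike pair, at r = 0.577 over all libraries and 0.0472 without androstenone 1 and androstenone 2.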

How the data were processed

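RNA-seq libraries of the OE from 4 sows were sequenced as paired ends on the DNBSEQ-T7 platform. Reads were trimmed by the authors in fastp 0.23.1. The authors' quantification ran Kallisto 0.48.0 against the Ensembl release 108 cDNA of Sscrofa11.1. The authors deposited an estimated count, which need not be whole, and a TPM value per gene and library. No source used here says how transcripts were summed to genes. RNA from overlapping genes and near-identical copies may be assigned to either.

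A name table matched 15527 of 22516 identifiers. The estimated counts were rounded, genes needed at least 1 count over the libraries, and edgeR 4.0.16 in R 4.3.3 compared the groups by TMM and its quasi-likelihood test, with no term beside condition. A DEG needed an unadjusted p below 0.05 with a log2 fold change of 1 or more in size, and Benjamini-Hochberg adjustment ran over all genes tested. The likeness measure used log2 CPM with a prior count of 2. RefSeq's annotation of Sscrofa11.1 gave the coordinates. Libraries of the same group differed by more than counting noise in each pair, and intervals cover counting error only.

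The regulators and gene lists were chosen with earlier results of these data known. For each other list, the rule named up to 2 genes per direction of smallest p past the cutoff, or the 2 of highest TPM where none passed. Genes outside the rule are the olfactory neuron markers other than STOML3 and ANO2, COL1A1, TOP2A, CCNB1, BUB1, CCNB2, MCM2, GMNN, E2F4, PLK4, STIL, HYLS1 and the chromosome 16 neighbours. RSPH9, DNAAF1, HES1 and HEY1 are outside it as well. The alternatives were edgeR's likelihood ratio and exact tests, DESeq2 1.42.0, limma 3.58.1 (voom, and on log2(TPM + 0.1) and log2(TPM + 1)), RLE normalization, library size only, unrounded counts, a floor of 10 counts, filterByExpr, the replicate number as a block and each library left out. The axoneme level as a covariate, and leaving out control 1 with control 4 or androstenone 1 with androstenone 2, were added after seeing the data.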

Additional observations from a re-analysis of the deposited data

Results flagged for a closer look

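Of 20 sets of 4 libraries (10 regulators in each group), 3 had a library far from the other 3 by Dixon's test on TPM. Chance gives about 1 in 20 for independent sets of normally distributed values, which these sets are not, since they share libraries. MYB, CDC20B and RFX3, the genes flagged, ran alike over the 8 libraries (r = 0.947 to 0.979), so their flags cannot be counted as separate. The library flagged was control 3 each time. It measured 48.3 TPM of MYB against at most 14.03 TPM in the other controls, 10.4 TPM of CDC20B against at most 1.85 TPM, and 7.29 TPM of RFX3 against at most 1.43 TPM. Control 3 also held the highest summed axoneme level of the 8 libraries, 6352 TPM, and its part in these values was not tested.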

How the results depend on the processing

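The main count of 1368 DEGs became 727 and 321 with limma on log2(TPM + 0.1) and log2(TPM + 1), 881 without control 1 and control 4 together, 813 without androstenone 1 and androstenone 2 together, and 867 (without androstenone 1) to 2414 (without control 3) with single libraries left out. After adjustment, the 0 genes of the quasi-likelihood test became 200, 157 and 670 with the likelihood ratio test, the exact test and DESeq2. The 2 called regulators became 0 with voom, with both TPM scales and without control 1 and control 4, 1 (GMNC, lower) without androstenone 1 and androstenone 2, and 2 to 6 with single libraries left out, 6 without control 3. GMNC turned from 0.17 to -0.20 and -0.10 with the TPM scales, -0.41 with the axoneme covariate, -1.47 without androstenone 1 and androstenone 2, and -0.33 to 0.48 with single libraries left out. Without androstenone 1 and androstenone 2, MYB turned to -0.47, TP73 to -0.33, CDC20B to -0.040, DEUP1 to -0.72, FOXJ1 to -0.42, RFX2 to -0.85 and RFX3 to -0.55. The cause was not tested. MCIDAS and CCNO kept their sign under each of the 23 alternatives and passed the cutoff under 17, and CDC20B passed it under 8.

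The replicate numbers did not pair the libraries, since same-numbered libraries deviated from their group means with r of -0.05, -0.58, -0.67 and 0.20, and 0 of 8 libraries lay closest to their own number. With the replicate number as a block, 583 genes and 0 regulators were called and GMNC had -0.11. Depth limits control 1, where a count of 0 allows 0.718 CPM.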
